A study of Homo sapiens with 6 samples.

Results

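The 42 genes described here encode proteins of base excision repair, nucleotide excision repair, mismatch repair and non-homologous end joining. They were taken by gene symbol from a deposited table of 61806 human genes, in which each symbol matched 1 entry, and all 42 had enough counts to be tested. The RNA came from A549, a line derived from a human lung adenocarcinoma, with the genotype label WT. Treated cells received Japoflavone B, at a dose labelled 40 without a unit, for 24 h after 24 h of seeding, and their libraries are titled LE-532. Control cells received the solvent DMSO on the same schedule. There were 3 libraries per group, all from this line, and the labels leave unsaid whether each was a culture of its own. The p-values therefore rest on the spread among the 6 libraries, which may be technical. The series title describes the compound as an inhibitor of PARP1, an enzyme that senses DNA breaks and recruits excision repair proteins, and the comparison asks here how the mRNA of the repair pathways differed after treatment.

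Base excision repair removes small base lesions. A DNA glycosylase cuts out the damaged base, an AP endonuclease opens the backbone, a polymerase fills the gap and a ligase seals it. Nucleotide excision repair removes bulky lesions such as those made by ultraviolet light. Its recognition factors find the lesion, the TFIIH complex unwinds the DNA and nucleases cut on both sides. Mismatch repair corrects replication errors through MutS-type dimers that bind the mismatch and MutL-type dimers that nick the strand, and its genes, like several glycosylase genes, are known to be more active in dividing cells. End joining rejoins broken DNA ends with the Ku heterodimer, the kinase DNA-PK and a ligase complex.

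Gene counts per library were 15733769 to 19822366 after Japoflavone B and 15298531 to 21744407 after DMSO. Mitochondrial genes held 8.33% to 8.58% of the counts after Japoflavone B and 3.97% to 4.7% after DMSO. With these genes left out, 10 repair members were called higher and 19 lower, the same numbers as with them. The summed FPKM (counts scaled by exon length and library total) of 9 epithelial and A549 markers was 1890 to 1940 after Japoflavone B and 6110 to 6490 after DMSO. The summed FPKM of 4 leukocyte markers was at most 0.23 in any library, with PTPRC and CD3E at 0 throughout, and that of 3 endothelial markers at most 0.07, with VWF at 0. That of 4 fibroblast markers was 0.53 to 0.71 after Japoflavone B and 4.63 to 5.16 after DMSO. Most of it was COL1A1, with 0.43 to 0.54 FPKM after Japoflavone B and 4.35 to 4.94 after DMSO. COL3A1, PDGFRB and DCN each averaged at most 0.18 FPKM in either group. At a median of -2.39 log2, all 17 genes of a proliferation list were lower after Japoflavone B, as were 35.4% of all genes tested. The part of these shifts in the repair results was not tested. In bulk libraries such as these, fewer cells that express a gene and less RNA per cell cannot be told apart.

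Of the 42 repair genes, 19 fell and 10 rose after Japoflavone B, and 13 did not pass the test. A gene is said to rise or fall where its adjusted p was below 0.05 (edgeR quasi-likelihood test, Benjamini-Hochberg over all 16082 genes tested). The 29 members called make up 69.0%, close to the 70% of all genes tested that were called. Members called lower made up 45.2%, with 35.4% of all genes called lower, and members called higher made up 23.8%, with 34.7% of all genes called higher. Changes were small for most members. The median absolute log2 fold change was 0.28 over the members and 0.53 over all genes tested. Only 3 members, or 7.14%, changed 2-fold or more, against 24.7% of all genes. The glycosylase genes NEIL3 and UNG fell by that much, as did 15% of all genes, and the TFIIH subunit gene GTF2H3 rose by that much, as did 9.67%. The FPKM of the groups did not overlap for 30 members, or 71.4%, of which 23 were lower and 7 higher. The same held for 71.6% of all genes tested, with 40.7% lower and 30.9% higher. FPKM are scaled by library totals, whereas log2 fold changes also use trimmed-mean factors, so a ratio of FPKM lies slightly below the fold. Scaling by library totals alone shifted all fold changes by a median of -0.10 log2, and log2(TPM + 1) shifted them by -0.21 log2. With library totals 7 members were called higher and 21 lower, and with TPM 3 were called higher and 25 lower. Of all genes called, 49.5% were higher in the test used here, 42.4% with library totals and 35% with TPM.

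**Figure D1:**
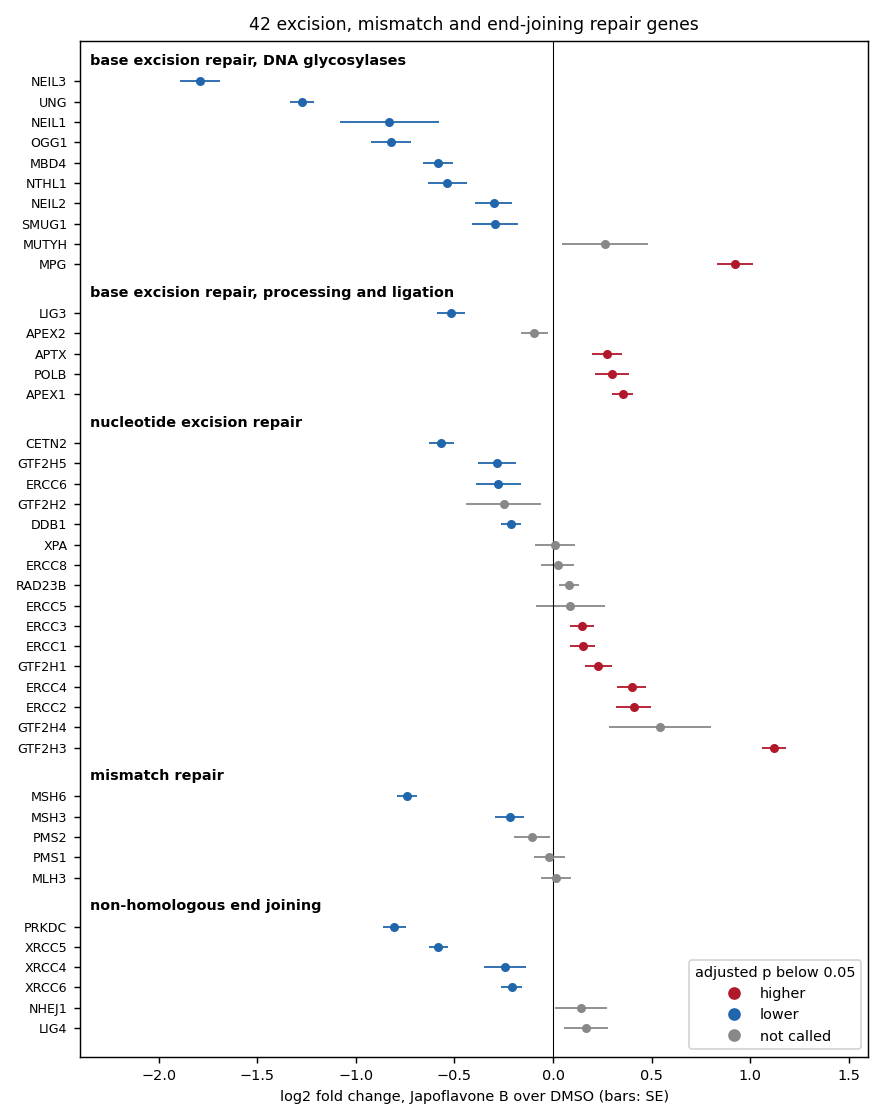
Log2 fold change of Japoflavone B over DMSO (x axis, bars are SE, n = 3 libraries per group) for the 42 repair genes, ordered within 5 repair groups; red and blue points passed the test. NEIL3 at -1.79 and UNG at -1.28 lie furthest left, and GTF2H3 at 1.12 and MPG at 0.92 furthest right.

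Most DNA glycosylase genes fell. Of the 10, 8 fell, 1 rose and 1 did not pass, with a median log2 fold change of -0.56. Those called lower made up 80% and those called higher 10%, with 35.4% and 34.7% over all genes tested. The summed FPKM of the 10 genes was 66.6, 62.2 and 63 in the Japoflavone B libraries and 85.7, 89.4 and 94.8 in the DMSO libraries. NEIL3 (ENSG00000109674, chromosome 4, 177309874 to 177362936, GRCh38) encodes a glycosylase of oxidised bases that also opens crosslinks at replication forks. Its FPKM was 4.88, 3.47 and 3.87 after Japoflavone B and 15.13, 14.44 and 16.22 after DMSO. All treated libraries lay below all DMSO libraries, and the gene was 3.46-fold lower (log2 fold change -1.79 ± 0.10, SE; edgeR adjusted p = 3.66e-15). UNG (ENSG00000076248, chromosome 12, 109097597 to 109126725), the main uracil glycosylase gene, had 8.31, 8.84 and 8.93 FPKM after Japoflavone B and 22.49, 21.92 and 23.33 after DMSO. The groups did not overlap, and UNG was 2.42-fold lower (log2 -1.28 ± 0.06; adjusted p = 1.12e-16). UNG makes a nuclear and a mitochondrial protein from different starts, and gene counts do not separate them.

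The other glycosylases for uracil or thymine fell less. MBD4, which removes thymine and uracil from mismatches with guanine, averaged 7.66 ± 0.292 FPKM after Japoflavone B and 12.3 ± 0.41 after DMSO (SD, n = 3; log2 -0.58 ± 0.08; edgeR adjusted p = 1.23e-07). SMUG1, a backup uracil glycosylase, stood at -0.29 log2 (adjusted p = 0.0283). Its call was lost in 5 of 18 alternatives. It was lost without DMSO replicate 2 or 3 (adjusted p = 0.0626 and 0.0524), without Japoflavone B replicate 2 or 3 (0.0797 and 0.0784) and with DESeq2 (0.118).

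Of the 6 genes that act on oxidised bases or their mispairs, 5 fell, NEIL3 included, with 35.4% of all genes tested called lower. OGG1, the glycosylase of 8-oxoguanine, had 1.27, 1.44 and 1.28 FPKM after Japoflavone B and 2.4, 2.6 and 2.56 after DMSO, with no overlap (1.77-fold lower, log2 -0.82 ± 0.10; edgeR adjusted p = 6.08e-08). NTHL1, which removes oxidised pyrimidines, was 1.45-fold lower (log2 -0.54 ± 0.10; adjusted p = 3.09e-05). NEIL1, a related enzyme, was low in both groups, with 40, 23 and 39 counts after Japoflavone B and 58, 99 and 52 after DMSO. Its log2 fold change was -0.83 ± 0.25 (adjusted p = 0.00478), and without DMSO replicate 2 it was -0.62 and no longer passed (adjusted p = 0.0646). NEIL2, which prefers lesions in open DNA, stood at -0.30 ± 0.09 (adjusted p = 0.00589), and without Japoflavone B replicate 1 at -0.23 (adjusted p = 0.0596). MUTYH, which removes adenine paired with 8-oxoguanine, had 89, 62 and 52 counts after Japoflavone B and 68, 85 and 43 after DMSO. These overlap, and its log2 fold change of 0.26 ± 0.22 did not pass (adjusted p = 0.288).

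MPG, the glycosylase of alkylated purines, was the member of this group that rose. MPG (ENSG00000103152, chromosome 16, 77007 to 85851) had 29.52, 24.75 and 25.69 FPKM after Japoflavone B and 12.96, 15.85 and 16.64 after DMSO. Each treated library lay above each DMSO library, and the gene was 1.9-fold higher (log2 0.92 ± 0.09; edgeR adjusted p = 7.05e-10). After Japoflavone B its FPKM was above that of UNG, and after DMSO below it, in every library. The direct reversal enzymes, which undo alkylation without cutting the DNA, give further values for this class of lesion. Of 3 such genes, ALKBH2 and ALKBH3 rose, by 0.56 ± 0.08 and 0.72 ± 0.11 log2 (adjusted p = 1.24e-06 and 1.62e-06), and the remaining gene did not pass. Over all genes tested, 34.7% were called higher.

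The promoters of the members at both ends of this range are shown because these genes moved furthest or, for MSH6, moved furthest in its pathway. Each is the 250 bases before a RefSeq transcript start and 30 bases from it (GRCh38.p14, plus strand), and capitals mark matches on either strand to TTTNNCGC (letters typical of E2F sites), TTTGAA (letters of the cell cycle element CHR) or CCAAT.
NEIL3, chr4:177309624-177309903: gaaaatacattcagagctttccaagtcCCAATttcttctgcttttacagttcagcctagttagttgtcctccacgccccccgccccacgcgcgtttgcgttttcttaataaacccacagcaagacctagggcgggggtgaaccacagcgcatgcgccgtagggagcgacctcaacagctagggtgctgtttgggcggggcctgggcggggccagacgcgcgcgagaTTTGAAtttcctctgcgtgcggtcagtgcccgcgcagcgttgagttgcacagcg
UNG, downstream start, chr12:109097922-109098201: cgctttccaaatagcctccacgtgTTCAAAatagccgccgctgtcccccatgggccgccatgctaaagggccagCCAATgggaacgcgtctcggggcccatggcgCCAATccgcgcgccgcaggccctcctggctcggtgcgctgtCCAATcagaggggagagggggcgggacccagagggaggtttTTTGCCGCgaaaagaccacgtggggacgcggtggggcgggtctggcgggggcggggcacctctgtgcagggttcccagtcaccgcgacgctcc
MSH6, upstream start, chr2:47782895-47783174: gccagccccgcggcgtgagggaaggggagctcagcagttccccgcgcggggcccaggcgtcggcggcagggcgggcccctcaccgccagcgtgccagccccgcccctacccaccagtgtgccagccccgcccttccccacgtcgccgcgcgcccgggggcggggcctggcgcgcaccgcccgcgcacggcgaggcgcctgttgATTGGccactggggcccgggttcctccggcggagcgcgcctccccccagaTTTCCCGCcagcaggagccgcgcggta
MPG, chr16:77975-78254: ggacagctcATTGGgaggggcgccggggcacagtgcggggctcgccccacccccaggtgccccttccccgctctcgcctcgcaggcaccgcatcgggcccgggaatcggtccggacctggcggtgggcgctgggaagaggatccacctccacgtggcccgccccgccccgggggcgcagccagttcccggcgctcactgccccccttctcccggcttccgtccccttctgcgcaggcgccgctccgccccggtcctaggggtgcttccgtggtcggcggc
GTF2H3, chr12:123633579-123633858: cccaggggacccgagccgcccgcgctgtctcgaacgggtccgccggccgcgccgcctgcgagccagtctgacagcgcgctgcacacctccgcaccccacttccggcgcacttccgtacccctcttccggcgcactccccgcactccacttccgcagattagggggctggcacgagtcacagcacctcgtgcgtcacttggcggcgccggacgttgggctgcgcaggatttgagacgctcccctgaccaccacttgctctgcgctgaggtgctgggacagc
In the NEIL3 sequence the capitals are a CCAAT box at -223 and TTTGAA at -24, counted from the start base as 0. In that of UNG they are TTTGAA on the reverse strand at -226, CCAAT at -176, -145 and -104, and an E2F-type match, TTTGCCGC, at -63. The other UNG start, not printed, has 1 CCAAT match and 0 matches to the E2F-type letters or TTTGAA in its 280 bases. The MSH6 sequence has CCAAT on the reverse strand at -47 and the E2F-type match TTTCCCGC at 3. RefSeq lists 4 MSH6 starts, and each of the others, not printed, has 0 matches to all 3 motifs in its 280 bases. The UNG and MSH6 starts printed were thus chosen for their matches. Nor were genes chosen by 1 rule for every pathway. LIG3 moved furthest of the base excision genes after the glycosylases, at -0.52 log2, but is not printed, and its promoter entry holds none of the 3 motifs. OGG1 fell further than MSH6, at -0.82 log2, and is not printed either. PRKDC, which moved furthest in end joining, had no promoter entry. The MPG sequence has a CCAAT match on the reverse strand at -241 and that of GTF2H3 no capitals.

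Promoter entries were found for 37 of the 42 members, with 57 starts of 300 bases each. NEIL2, SMUG1, POLB, PRKDC and XRCC5 had no match. The E2F-type letters were in 15.8% of the member starts and 6.89% of the 35116 starts of all genes, and those of CCAAT in 45.6% and 34.6%. The starts of all genes belong to 27305 genes with a promoter entry and were not limited to the genes tested here. TTTGAA was in 8.77% of member starts and 15.2% of all starts. The GC box GGGCGG was in 75.4% and 45%, and the NRF1-type motif in 19.3% and 5.78%. By gene, at least 1 start held the E2F-type letters in 1 of 2 members lower by at least 2-fold, in 5 of 13 other members called lower, in 2 of 13 not called and in 0 of 9 called higher. Over the 27305 genes this share was 8.23%. The 5 were MSH6, MSH3, ERCC6, NEIL1 and XRCC6, and the calls of MSH3, ERCC6 and NEIL1 were lost in at least 1 alternative. Among the members called higher, only the calls of MPG, APEX1 and GTF2H3 were kept in every alternative. A match says only that the letters are present in the window.

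Downstream of the glycosylases, the base excision genes split. Of 5, 3 (60%) rose, 1 (20%) fell and 1 did not pass, with 34.7% of all genes tested called higher and 35.4% lower. The summed FPKM was 187, 191 and 180 after Japoflavone B and 156, 166 and 166 after DMSO. APEX1 (ENSG00000100823, chromosome 14, 20455191 to 20457772), the main AP endonuclease, had the highest FPKM of all 42 genes. It had 162.63, 166.31 and 155.09 FPKM after Japoflavone B and 128.82, 138.48 and 139.36 after DMSO. The groups did not overlap, and the log2 fold change was 0.35 ± 0.05 (1.28-fold higher; edgeR adjusted p = 8.38e-07). APEX2, a minor AP endonuclease with nuclease activity, averaged 12.1 ± 0.112 FPKM after Japoflavone B and 13.8 ± 0.238 after DMSO (SD, n = 3), and its log2 fold change of -0.09 ± 0.07 did not pass (adjusted p = 0.225). It was called lower in 4 of 18 alternatives, those that scale by library totals or use FPKM or TPM, at -0.30 to -0.18 log2. The ratio of APEX1 to APEX2 within a library, on FPKM + 0.1, was 13.5, 13.5 and 12.8 after Japoflavone B and 9.36, 9.75 and 10.1 after DMSO. Its log2 difference was 0.44, with no overlap (exact two-sided permutation p = 0.1, the smallest that 3 against 3 libraries allow; 0.138 adjusted over 11 pairs).

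POLB, the gap-filling polymerase of short-patch repair, stood at 0.30 ± 0.09 log2 (edgeR adjusted p = 0.00361). APTX, aprataxin, which removes AMP from failed ligations, stood at 0.28 ± 0.08 (adjusted p = 0.00238). Both rose in the test used here, but APTX did not pass with log2(FPKM + 1), log2(FPKM + 0.1) or TPM (adjusted p = 0.187, 0.189 and 0.656) nor POLB with TPM (0.332). LIG3, the ligase of short-patch and mitochondrial repair, had 3.66, 3.09 and 3.73 FPKM after Japoflavone B and 5.49, 5.55 and 5.07 after DMSO. All treated libraries were lower, by 1.43-fold (log2 -0.52 ± 0.07; adjusted p = 2.43e-07).

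Of 12 further genes of base excision and single-strand break repair, 4 rose, 5 fell and 3 did not pass, with a median of -0.12 log2. These shares, 33.3% higher and 41.7% lower, lie near the 34.7% and 35.4% over all genes tested. LIG1, the replicative ligase that also seals long patches, FEN1, the flap nuclease, and TDP1, which frees trapped topoisomerase I, fell by 1.64, 1.12 and 1.16 on the log2 scale. PARP2 fell by 0.89 and PARP1 by 0.31. Among those that rose were the repair polymerase gene POLL (1.10 log2), APLF, a factor that reads poly(ADP-ribose) (1.06), and the scaffold XRCC1 (0.44). Among 15 genes of repair synthesis, shared with DNA replication, 12 fell and 2 rose, with a median of -0.70 log2. That is 80% lower and 13.3% higher, with 35.4% and 34.7% over all genes tested. The polymerase subunits POLE2 and POLD3 were at -2.91 and -1.27 log2 and the sliding clamp gene PCNA at -0.87. The members that rose were RFC1 (0.15 log2) and POLD2 (0.16 log2), and both calls were lost with library totals, with a mean of at least 2 FPKM required, and with FPKM or TPM.

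**Figure D2:**
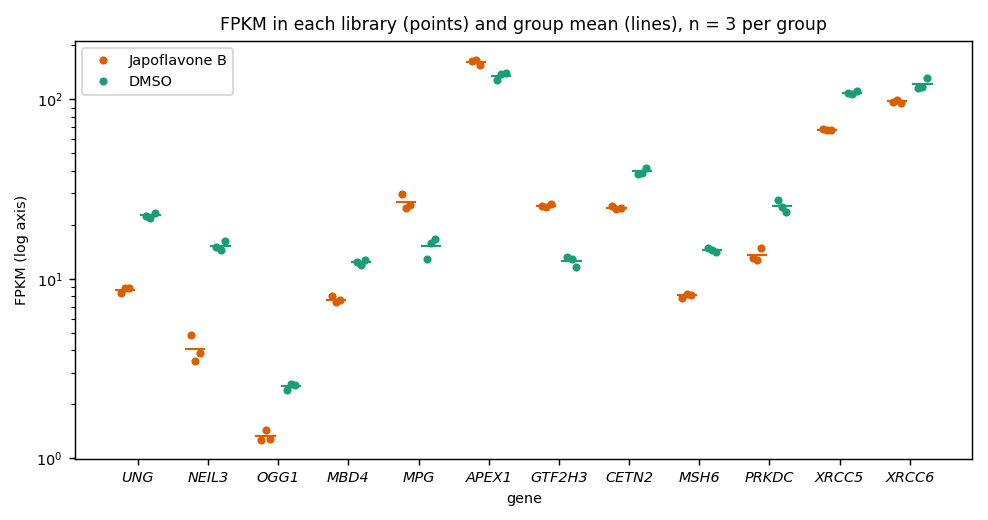
FPKM (y axis, log scale) of 12 repair genes in each of the 3 Japoflavone B libraries (orange) and 3 DMSO libraries (green), with lines at the group means. For these 12 genes the groups do not overlap, with MPG, APEX1 and GTF2H3 higher after Japoflavone B and the other 9 lower.

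Nucleotide excision genes moved in both directions. Of 16, 6 rose, 4 fell and 6 did not pass. Members called higher made up 37.5% and those called lower 25%, with 34.7% and 35.4% over all genes tested. The median log2 fold change was 0.08 in the test used here, -0.02 with library totals and -0.11 with TPM. The summed FPKM was 184, 184 and 180 after Japoflavone B and 187, 184 and 194 after DMSO, so the ranges meet at the rounded value of 184. Of the 7 core subunit genes of TFIIH, the complex that opens DNA in repair and at promoters, 4 rose, 1 fell and 2 did not pass. GTF2H3 (ENSG00000111358, chromosome 12, 123633739 to 123662604), the p34 subunit, had 25.44, 25.22 and 25.99 FPKM after Japoflavone B and 13.21, 12.86 and 11.65 after DMSO. Every treated library lay far above every DMSO library, and the gene was 2.18-fold higher (log2 1.12 ± 0.06; edgeR adjusted p = 2.09e-15). ERCC2, the XPD helicase gene, averaged 4.09 ± 0.371 FPKM after Japoflavone B and 3.3 ± 0.146 after DMSO (SD, n = 3; log2 0.41 ± 0.09; adjusted p = 2.03e-04). GTF2H1, the p62 subunit, stood at 0.23 ± 0.07 (adjusted p = 0.00388) and ERCC3, the XPB translocase gene, at 0.15 ± 0.06 (adjusted p = 0.0324).

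The smaller TFIIH rises depended on scaling. ERCC2 did not pass with TPM (0.18 log2, adjusted p = 0.102), and GTF2H1 did not pass in 4 alternatives that scale by library totals or use FPKM or TPM (0.01 to 0.13 log2). The ERCC3 call was lost in 9 of 18 alternatives. It was lost without DMSO replicate 2 (0.12 log2, adjusted p = 0.147) and without Japoflavone B replicate 1 (0.12 log2, adjusted p = 0.16), and with TPM it stood at -0.07 log2. GTF2H5, the small p8 subunit that stabilises the complex, fell to 2 ± 0.0808 FPKM after Japoflavone B, against 2.63 ± 0.172 after DMSO (SD, n = 3; log2 -0.28 ± 0.09; adjusted p = 0.00913). GTF2H4, the p52 subunit, had 56, 37 and 56 counts after Japoflavone B and 53, 34 and 30 after DMSO, at 0.54 ± 0.26 log2 (adjusted p = 0.062). Without DMSO replicate 1 it was called higher, at 0.76 log2 (adjusted p = 0.023). GTF2H2, the p44 subunit, stood at -0.25 ± 0.19 (adjusted p = 0.246), and the reads it shares with its near-identical copies were not resolved. The within-library ratio of ERCC2 to ERCC3 was 0.439, 0.51 and 0.435 after Japoflavone B and 0.363, 0.404 and 0.392 after DMSO, without overlap (log2 difference 0.26, exact p = 0.1, adjusted 0.138).

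Of the recognition genes, CETN2 and DDB1 fell. CETN2 (ENSG00000147400, chromosome X, 152826994 to 152830757), centrin 2, a calcium-binding protein of centrioles and of the damage sensor complex, had 25.45, 24.59 and 24.78 FPKM after Japoflavone B and 38.52, 39.07 and 41.53 after DMSO. All treated libraries were lower, by 1.48-fold (log2 -0.57 ± 0.06; edgeR adjusted p = 6.97e-09). DDB1, the adaptor of CUL4 ubiquitin ligases, averaged 18.4 ± 0.121 FPKM after Japoflavone B and 22.9 ± 0.654 after DMSO (SD, n = 3; log2 -0.21 ± 0.05; adjusted p = 3.46e-04). RAD23B, a stabiliser of the damage sensor, averaged 62.5 ± 1.76 FPKM after Japoflavone B and 63.4 ± 2.32 after DMSO (SD, n = 3), and its log2 fold change of 0.08 ± 0.05 did not pass (adjusted p = 0.156). For transcription-coupled repair, ERCC6, which encodes CSB, stood at -0.28 ± 0.12 log2 (adjusted p = 0.0353). Its FPKM was 0.59, 0.61 and 0.62 after Japoflavone B and 0.95, 0.71 and 0.7 after DMSO, and DMSO replicate 1 was the highest by far. Without that library the log2 fold change was -0.11 and did not pass (adjusted p = 0.383). Nor did it pass without Japoflavone B replicate 1, 2 or 3 (adjusted p = 0.113, 0.0784 and 0.0632), with DESeq2 (0.133) or on log2 FPKM (0.085 and 0.118). ERCC8, which encodes CSA, stood at 0.02 ± 0.08 (adjusted p = 0.802), and the ratio of ERCC6 to ERCC8 was 0.58, 0.582 and 0.576 after Japoflavone B and 0.75, 0.681 and 0.645 after DMSO (log2 difference -0.25, exact p = 0.1, adjusted 0.138).

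Of the 3 incision genes, 2 rose, with 34.7% of all genes tested called higher. ERCC4, the XPF nuclease gene, averaged 2.53 ± 0.115 FPKM after Japoflavone B and 2.06 ± 0.0529 after DMSO (SD, n = 3; log2 0.40 ± 0.07; edgeR adjusted p = 2.45e-05), a rise that did not pass with TPM (0.16 log2, adjusted p = 0.151). Its partner ERCC1 stood at 0.15 ± 0.06 (adjusted p = 0.0367), and 12 of 18 alternatives ended that call. They include leaving out DMSO replicate 1 or 2 (adjusted p = 0.124 and 0.0625) or Japoflavone B replicate 1 or 2 (0.0955 and 0.124), and with TPM the value was -0.06 log2. The ratio of ERCC4 to ERCC1 was 0.199, 0.187 and 0.222 after Japoflavone B and 0.187, 0.163 and 0.166 after DMSO, which overlap (exact p = 0.2, adjusted 0.244). ERCC5, the XPG nuclease gene, had 95, 87 and 82 counts after Japoflavone B and 99, 101 and 85 after DMSO, and XPA, the scaffold that checks the lesion, stood at 0.01 ± 0.10 log2; neither passed (adjusted p = 0.667 and 0.935).

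Of 15 further genes of nucleotide excision repair, 9 rose, 4 fell and 2 did not pass, with a median of 0.29 log2. That is 60% higher and 26.7% lower, with 34.7% and 35.4% over all genes tested. CDK7, the kinase that docks on TFIIH, averaged 31.9 ± 0.829 FPKM after Japoflavone B and 18.5 ± 0.899 after DMSO (SD, n = 3; log2 0.89 ± 0.06; edgeR adjusted p = 1.05e-12). Its partners in the kinase module, CCNH and MNAT1, stood at 0.61 ± 0.08 and 0.28 ± 0.08 log2 and rose as well. Among those that fell, the ubiquitin ligase genes CUL4B and RBX1 were at -0.64 and -0.60 log2, and the single-strand binding subunits RPA2 and RPA3 at -0.36 and -0.40 log2.

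In mismatch repair, both MutS partner genes fell and the MutL partner genes did not pass. Of the members, 40% were called lower and 0% higher, with 35.4% and 34.7% over all genes tested. The summed FPKM of the 5 members was 26.8, 27.4 and 28 after Japoflavone B and 37.6, 36.1 and 36.1 after DMSO. MSH6 (ENSG00000116062, chromosome 2, 47695530 to 47810063), whose dimer binds base mismatches and short loops, had 7.81, 8.26 and 8.16 FPKM after Japoflavone B and 14.87, 14.43 and 14.18 after DMSO. The groups stood well apart, and MSH6 was 1.67-fold lower (log2 -0.74 ± 0.05; edgeR adjusted p = 4.15e-13). MSH3, whose dimer binds longer loops, had 6.31, 6.5 and 6.12 FPKM after Japoflavone B and 8.15, 7.58 and 7.94 after DMSO (log2 -0.22 ± 0.07; adjusted p = 0.00917). Without Japoflavone B replicate 3 its value was -0.19 and did not pass (adjusted p = 0.054). The ratio of MSH6 to MSH3 was 1.23, 1.27 and 1.33 after Japoflavone B and 1.81, 1.89 and 1.78 after DMSO, a log2 difference of -0.52 with no overlap (exact two-sided p = 0.1, adjusted 0.138).

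MLH3, a MutL partner used mainly in meiosis and in some repair, had 4.99, 4.64 and 4.82 FPKM after Japoflavone B and 5.62, 4.69 and 5.03 after DMSO, which overlap (log2 0.02 ± 0.08; edgeR adjusted p = 0.851). PMS1 stood at -0.02 ± 0.08 and PMS2, the main nicking partner, at -0.11 ± 0.09 (adjusted p = 0.845 and 0.291). PMS2 has pseudogenes of close sequence, which makes its counts uncertain. It was called lower with library totals (-0.21 log2, adjusted p = 0.0395) and with TPM (-0.29 log2, adjusted p = 0.0356), and PMS1 with TPM (-0.23 log2, adjusted p = 0.024). The ratios of PMS2 to PMS1 and of PMS2 to MLH3 had log2 differences of -0.08 and -0.12, with overlap (exact p = 0.5 and adjusted 0.5 each). All 3 further mismatch repair genes listed fell, with a median of -0.95 log2, among them the nuclease gene EXO1 at -2.07 log2. Over all genes tested, 35.4% were called lower.

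For end joining, the DNA-PK genes fell and most ligation genes did not pass. Of the 6 members 4 fell and 2 did not pass, with a median of -0.23 log2. Members called lower made up 66.7% and those called higher 0%, with 35.4% and 34.7% over all genes tested. The summed FPKM was 187, 188 and 187 after Japoflavone B and 261, 259 and 276 after DMSO. PRKDC (ENSG00000253729, chromosome 8, 47773111 to 47960178), the catalytic subunit of DNA-PK, had 13.12, 12.8 and 14.82 FPKM after Japoflavone B and 27.51, 25.25 and 23.68 after DMSO. All treated libraries were below all DMSO libraries, by 1.75-fold (log2 -0.81 ± 0.06; edgeR adjusted p = 8.18e-13). XRCC5, which encodes Ku80, had 68.39, 67.26 and 67.48 FPKM after Japoflavone B and 108.5, 106.88 and 110.89 after DMSO (1.5-fold lower, log2 -0.58 ± 0.05; adjusted p = 1.43e-11). XRCC6, which encodes its partner Ku70, had 96.92, 99.73 and 95.85 FPKM after Japoflavone B and 115.01, 116.82 and 131.3 after DMSO (1.16-fold lower, log2 -0.21 ± 0.05; adjusted p = 0.00126). The ratio of XRCC5 to XRCC6 was 0.706, 0.675 and 0.704 after Japoflavone B and 0.943, 0.915 and 0.845 after DMSO, a log2 difference of -0.37 with no overlap (exact two-sided p = 0.1, adjusted 0.138).

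XRCC4, the scaffold of the ligase, had 5.5, 4.58 and 5.84 FPKM after Japoflavone B and 6.57, 6.74 and 7.03 after DMSO (log2 -0.24 ± 0.11; edgeR adjusted p = 0.0434). That call was lost without DMSO replicate 2 or 3 (adjusted p = 0.0691 and 0.108), without Japoflavone B replicate 1 or 2 (0.0732 and 0.243), without a filter (0.0582) and with DESeq2 (0.144). LIG4, the ligase of end joining, had 2.44, 2.21 and 2.3 FPKM after Japoflavone B and 2.56, 2.15 and 1.91 after DMSO. The groups overlap, and its 0.17 ± 0.11 log2 did not pass (adjusted p = 0.181). Without DMSO replicate 1 it was called higher, at 0.29 log2 (adjusted p = 0.0218). NHEJ1, which encodes XLF, a factor that bridges ends, stood at 0.14 ± 0.13 (adjusted p = 0.341). The ratios of XRCC4 to LIG4 and of LIG3 to LIG4 had log2 differences of -0.43 and -0.69, without overlap (exact p = 0.1 and adjusted 0.138 each). Of 11 further end-joining genes, 1 rose, 4 fell and 6 did not pass, with a median of 0.04 log2. That is 9.09% higher and 36.4% lower, with 34.7% and 35.4% over all genes tested. The member that rose was the polymerase gene POLM (0.81 log2). TP53BP1, which steers breaks to end joining, RIF1, its effector, SHLD1, a shieldin subunit, and POLQ, the polymerase of microhomology-mediated joining, were at -1.26, -0.71, -1.38 and -1.75 log2.

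**Figure D3:**
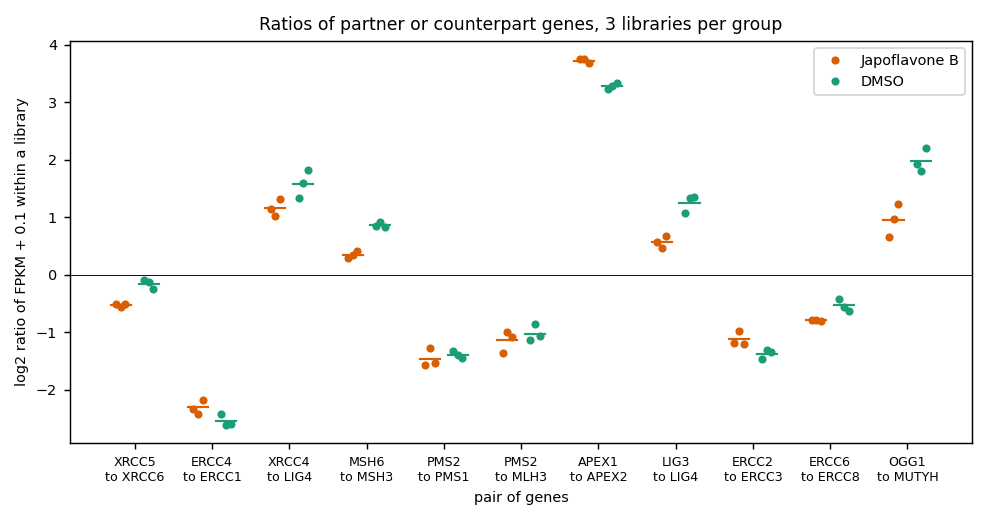
Log2 ratio of FPKM + 0.1 for 11 pairs of partner or counterpart genes within each library (points; lines are group means; orange Japoflavone B, green DMSO). The groups do not overlap for 8 pairs, among them MSH6 to MSH3 at a difference of -0.52 and OGG1 to MUTYH at -1.02, and overlap for ERCC4 to ERCC1 and both PMS2 pairs. How often other gene pairs separate was not computed.

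Across the 11 pairs, 8 had ratios that did not overlap between groups, and each of these had an exact p of 0.1 and an adjusted p of 0.138. How often the ratios of other gene pairs separate was not computed. For single genes, the FPKM of the groups did not overlap in 71.6% of all genes tested. A ratio within a library does not depend on library scaling, apart from the pseudocount, so it shows unequal change and not which gene moved. The largest absolute log2 difference was that of OGG1 to MUTYH, at -1.02, where the ratio was 1.57, 1.97 and 2.34 after Japoflavone B and 3.79, 3.51 and 4.59 after DMSO.

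Several members share exon sequence with a neighbour on the opposite strand in GENCODE 29, and the sources used here do not state whether counting used strand, so reads from such stretches cannot be assigned with certainty. For MPG the overlap with NPRL3 covered 27.3% of its exon bases, and NPRL3 stood at -0.06 log2 (edgeR adjusted p = 0.465). For OGG1 the overlap with CAMK1 covered 25%, and CAMK1 fell by 1.21 log2. For NTHL1 it was TSC2, with 16.5% and -0.60 log2, and for MUTYH it was TOE1, with 14.1% and -1.02 log2. For NEIL1, a member with few counts, the overlap with MAN2C1 covered 26.4%, and MAN2C1 stood at 0.08 log2. MAN2C1 held 2508 counts over the Japoflavone B libraries and 2743 over the DMSO libraries, far more than NEIL1, so the value of NEIL1 is uncertain. MBD4 overlaps IFT122 in 4.29% of its exon bases, and IFT122 fell by 1.99 log2. LIG3 overlaps RFFL in 29.1%, ERCC1 overlaps POLR1G in 28.6% and MSH6 overlaps FBXO11 in 16.2%, and these neighbours stood at 0.22, -0.15 and 0.11 log2. GTF2H4 shares 79% of its exon bases with VARS2 on the same strand, ERCC5 shares 63.2% with the readthrough gene BIVM-ERCC5, and NHEJ1 shares 65.4% with an unnamed gene, so the values of GTF2H4, ERCC5 and NHEJ1 are uncertain. GTF2H3 overlaps EIF2B1 in 0.701% of its exon bases, and UNG, NEIL3, PRKDC, XRCC5 and XRCC6 had no exon overlap with another listed gene. What part these overlaps have in the values was not tested.

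**Figure D4:**
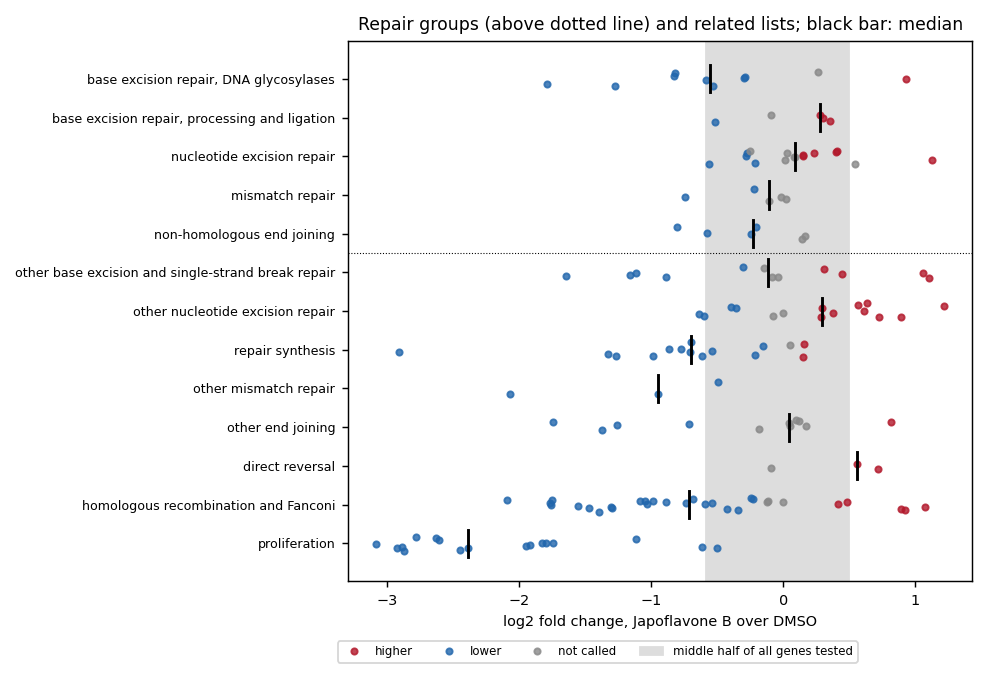
Log2 fold change of Japoflavone B over DMSO (x axis) for each tested gene of the 5 repair groups, above the dotted line, and 8 related lists below it; black bars are medians and the grey band runs from the lower to the upper quartile of all genes tested, -0.59 to 0.49. Medians are -0.56 for the glycosylases, 0.08 for nucleotide excision, -0.71 for homologous recombination and Fanconi genes and -2.39 for proliferation genes.

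Homologous recombination, the other main route of break repair, gives a frame for these values. In a list of 30 homologous recombination and Fanconi genes, 22 fell and 5 rose, with a median of -0.71 log2. That is 73.3% lower and 16.7% higher, with 35.4% and 34.7% over all genes tested. Of the 30 genes, 13, or 43.3%, changed by at least 2-fold. Of these, GEN1, a nuclease that resolves crossed DNA strands, BRCA1 and FANCI were at -2.09, -1.76 and -1.47 log2. The repair members had a median of -0.10 log2, and 7.14% changed by at least 2-fold. The difference between the lists was not tested. Across the 42 members, the log2 fold change had a Spearman correlation of -0.0785 with exonic length and of -0.198 with mean FPKM after DMSO, points that share the same 6 libraries. Of the 29 calls, 16 were kept in every alternative. These were 13 that fell (UNG, OGG1, NTHL1, NEIL3, MBD4, LIG3, GTF2H5, CETN2, DDB1, MSH6, PRKDC, XRCC5 and XRCC6) and 3 that rose (MPG, APEX1 and GTF2H3).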

How the data were processed

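Polyadenylated RNA of A549 cells, in 6 libraries, was sequenced, per the labels' protocols. Named in the submitters' processing notes are the build GRCh38 and the tools DESeq2, HTSeq 0.6.1, HISAT2 2.0.1 and cutadapt 1.9.1. Their roles, the annotation and the strand setting are not given in the sources used here. The deposited table holds whole-number raw counts per gene that the authors made for each library, the authors' FPKM (from counts, exonic size and column total; recomputed values differed by at most 0.005) and exonic sizes in bases.

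Genes were filtered with filterByExpr (minimum count 10, minimum total 15), which kept 16082, scaled by trimmed mean of M-values and tested between treatments by edgeR's quasi-likelihood method (version 4.0.16, R 4.3.3) with no other term. The threshold was 0.05 after Benjamini-Hochberg adjustment. TPM were computed from counts and exonic sizes. Alternatives were other scalings, filters and tests (DESeq2 1.42.0, limma 3.58.1 on log2 values), the replicate number as a block, mitochondrial genes left out and each library left out. Partner ratios used FPKM + 0.1 and exact two-sided permutation tests. Promoters are RefSeq entries (GRCh38.p14), and exon overlaps were read from GENCODE 29.

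The members, lists, pairs and naming rule were chosen with earlier results of these data known. Values per library were to be given for members changed by at least 2-fold and for the highest and lowest of each repair group; others, and some genes of related lists, were added after their values were seen. Up to 3 genes of each related list by adjusted p were to be named, and a few are not reported here.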

Additional observations from a re-analysis of the deposited data

How the results depend on the processing

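Members kept their direction in all but 33 combinations of a member and an alternative, which belong to 10 members. XPA turned to -0.0039 with upper-quartile scaling, -0.0924 with library totals, -0.0025 without a filter, -0.0222 with a mean of at least 2 FPKM, and -0.0844, -0.0927 and -0.20 with log2(FPKM + 1), log2(FPKM + 0.1) and log2(TPM + 1). For library totals and these 3 log2 units in that order, ERCC5 turned to -0.0145, -0.0068, -0.0189 and -0.0819, ERCC8 to -0.0777, -0.0369, -0.0623 and -0.15, RAD23B to -0.0203, -0.0199, -0.0202 and -0.13 and MLH3 to -0.0853, -0.0694, -0.0813 and -0.19. MLH3 also turned to -0.0153 with a mean of at least 2 FPKM. With TPM, ERCC1, ERCC3, LIG4 and NHEJ1 turned to -0.063, -0.0676, -0.0311 and -0.054. Without single libraries, XPA ranged from -0.0362 to 0.0516, ERCC8 from -0.0422 to 0.11, MLH3 from -0.0539 to 0.0963 and PMS1 from -0.0852 to 0.0245. XPA, ERCC8 and MLH3 turned without DMSO replicate 2, and PMS1 without Japoflavone B replicate 1 or 2.

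Members called higher numbered 6 with log2(FPKM + 1), 6 with log2(FPKM + 0.1) and 3 with TPM, against 10. Of the base excision genes after the glycosylases, 2 were lower with library totals and with each log2 unit, and 1 was higher with TPM. Of the nucleotide excision members, 3 were higher with library totals and with each FPKM unit, and 1 was higher and 7 lower with TPM. With TPM, 4 mismatch repair members and 8 further base excision genes were lower, and 10 of the 56 further excision, mismatch and end-joining genes were higher. Repair synthesis genes called higher numbered 0 with library totals, with a mean of at least 2 FPKM and with each log2 unit, and 1 without a filter or without any single library. Leaving out single libraries gave 1 to 2 mismatch repair members lower, 0 to 1 end-joining members higher and 1 to 2 further end-joining genes higher.

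Median log2 fold changes with library totals, log2(FPKM + 1), log2(FPKM + 0.1) and TPM were -0.20, -0.14, -0.20 and -0.29 for all members, -0.66, -0.46, -0.66 and -0.66 for glycosylases, 0.17, 0.12, 0.17 and 0.0526 for the genes after them, -0.0174, -0.0134, -0.0195 and -0.11 for nucleotide excision, and -0.33, -0.31, -0.33 and -0.44 for end joining. Mismatch repair had -0.21, -0.20 and -0.29 with library totals, log2(FPKM + 0.1) and TPM, and all members -0.19 with a mean of at least 2 FPKM. Without single libraries the medians were -0.13 to -0.0449 for all members, 0.21 to 0.30 for the genes after the glycosylases, 0.038 to 0.14 for nucleotide excision and -0.15 to -0.0132 for mismatch repair. The cause of these differences was not tested.

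With the replicate block, 10 members were higher and 19 lower, and no call of a member changed. Deviations of same-numbered libraries from their group means correlated at 0.0134, -0.00417 and -0.0446. No shared deviation was thus seen, but these values cannot settle whether same-numbered libraries were prepared together. For NEIL1, MUTYH and GTF2H4, with under 100 counts per library, small changes were not detectable at this depth.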
